A study of Homo sapiens with 4 samples.

Results

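Fibronectin, encoded by FN1, and 7 integrin subunits that form its receptors (ITGA4, ITGA5, ITGA8, ITGAV, ITGB1, ITGB3 and ITGB5) were examined in H1 human embryonic stem cells on day 2 of hematopoietic differentiation. The 8 genes were found by symbol, each in 1 row, among the 58365 rows of a table of FPKM values (mapped fragments corrected for transcript length and library depth). They were chosen with FN1's rise under IWP2 already known, so the difference between the groups is given for them as a description and without a p-value. They were part of the fit across all genes, and its calls on them are only counted, beside the share of all genes called. Both groups received 40 ng/ml activin A and 50 ng/ml BMP4 in custom mTeSR1 medium for 2 days, according to the sample labels. The DMSO group (n = 2 libraries) had no inhibitor, and the IWP2 group (n = 2) was given IWP2, a small molecule that blocks Porcupine, the enzyme that acylates Wnt proteins for secretion; its dose is not given in the sources used here. All 4 libraries came from the H1 line, and no source states that replicates were separate cultures, so the spread between them may be technical.

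Fibronectin is a secreted glycoprotein that cells pull into fibrils, and the fibrils form an early matrix in the embryo. Integrins are receptors made of an alpha and a beta chain, and the pairing decides which ligand is bound. ITGA5 with ITGB1 forms the classical fibronectin receptor and drives fibril assembly, while ITGAV pairs with ITGB1, ITGB3 or ITGB5 and also binds vitronectin. ITGA4 with ITGB1 recognises an alternatively spliced segment of fibronectin, and ITGA8 with ITGB1 binds fibronectin and nephronectin. Mesoderm migrates over fibronectin at gastrulation, and the comparison asks how these genes stood when Wnt secretion was inhibited during mesoderm induction.

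Single fragments left visible steps in the low values, from which the depth was estimated as 19300000 to 23700000 fragments per library (19300000 and 21700000 in DMSO, 20600000 and 23700000 in IWP2). The treatment was visible in Wnt target genes, of which 12 of 14 tested fell with IWP2 and 0 rose (limma, adjusted p under 0.05; 0 also at an unadjusted p under 0.05). They included NKD1, LGR5 and DKK1, whereas RNF43 and ZNRF3 did not pass the test. The gene T is on this list and also among the primitive streak and mesoderm markers below. SP5, a direct transcriptional target of Wnt/β-catenin, had 53.2 and 47 FPKM in the DMSO libraries and 0.379 and 0.363 in the IWP2 libraries. Markers of the cell types moved as well. The summed FPKM of 10 primitive streak and mesoderm markers was 951 to 1178 in DMSO and 88.4 to 89.3 in IWP2, with MSGN1 listed at 0 in both IWP2 libraries. The 7 definitive endoderm markers summed to 1918 to 2307 and to 126 to 137, with CER1 making up most of the DMSO sum. Without CER1 the other 6 summed to 259 to 306 and to 87.7 to 103. Most of that IWP2 sum was SOX17 (79.7 and 94.9 FPKM). Of the 6 endoderm markers tested, 5 fell, 0 rose and SOX17 was not called. GATA6, named after its values were seen, had 119 and 134 FPKM in DMSO and 3.52 and 3.01 in IWP2. The 7 pluripotency markers summed to 1034 to 1195 and to 2371 to 2384. POU5F1 carried most of that increase, and the other 6 summed to 444 to 462 and to 527 to 529. That sum hides SOX2, named after its values were seen. SOX2 had 0.193 and 0.174 FPKM in DMSO and 35.6 and 36.1 in IWP2 (limma, adjusted p = 0.00019). Of the 7, 5 rose, TDGF1 fell (203 and 221 FPKM in DMSO, 103 and 98.6 in IWP2, adjusted p = 0.0026) and NANOG was not called. None of the endoderm and pluripotency markers was at 0. Of 10 amnion and trophoblast markers 8 were tested, and TFAP2A, KRT7 and GABRP rose, HAND1 fell and 4 were not called. Their sum was 347 to 426 in DMSO and 248 to 272 in IWP2, and without HAND1, the most abundant, 104 to 113 and 148 to 153, with CGA at 0 in a library of each group. Of 5 neural ectoderm markers, which summed to 149 to 156 and to 128 to 139, 2 were tested, and NES rose and OTX2 fell, with SOX1 at 0 in a library of each group. The part of these marker changes in the results on the members was not tested. In bulk RNA, fewer cells of a type and less RNA per cell cannot be told apart.

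The promoters of FN1 and ITGA5 are shown because these members moved farthest in opposite directions. Each is the 250 bases upstream of the RefSeq start on GRCh38.p14, read 5′ to 3′ on the minus strand. Capitals mark the 6 motifs that were searched on both strands. These were the cyclic AMP response element, spelled TGACGTCA, the binding motif of the Wnt effectors TCF and LEF, spelled CTTTGAT, and the CCAAT box. The others were the GC box, spelled GGGCGG, the TATA element, spelled TATAAA, and an E-box bound by the SNAI repressors, spelled CAGGTG. Only these exact spellings were searched, so near variants, such as atataa close to the end of the FN1 window, stay in lowercase.
FN1, chr2:215436069-215436318: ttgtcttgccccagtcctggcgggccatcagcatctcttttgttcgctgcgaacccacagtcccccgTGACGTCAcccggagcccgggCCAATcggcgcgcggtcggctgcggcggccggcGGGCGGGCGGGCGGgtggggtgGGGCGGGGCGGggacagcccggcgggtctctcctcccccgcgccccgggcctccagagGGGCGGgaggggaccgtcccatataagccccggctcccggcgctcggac
ITGA5, chr12:54419267-54419516: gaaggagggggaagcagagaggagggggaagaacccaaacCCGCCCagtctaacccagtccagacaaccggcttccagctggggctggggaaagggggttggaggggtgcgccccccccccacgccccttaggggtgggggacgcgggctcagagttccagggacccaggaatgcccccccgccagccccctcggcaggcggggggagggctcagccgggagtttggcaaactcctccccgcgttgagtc
The FN1 window held 1 TGACGTCA, beginning 183 bases upstream of the start, 1 CCAAT and 6 copies of GGGCGG, of which neighbouring copies share letters. TGACGTCA is found in 1.65% of 35116 RefSeq promoter windows of this length, CCAAT in 32.0% and GGGCGG in 42.6%. The ITGA5 window held 1 GC box, on the opposite strand, and no other motif of the 6. CTTTGAT, which 2.26% of all windows hold, was in none of the 11 windows of the 7 members that had one. GENCODE release 29 places transcript starts farther out, so that 104 bases of the FN1 window and 194 bases of the ITGA5 window lie inside the annotated genes.

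FN1 (ENSG00000115414.18; GRCh38 chromosome 2, 215360440 to 215436172, minus strand, protein-coding) was the member with the largest increase. Its level was 235 and 153 FPKM in the DMSO libraries and 794 and 769 FPKM in the IWP2 libraries. Both IWP2 libraries lay far above both DMSO libraries, and the DMSO libraries differed more from each other than the IWP2 libraries did. The group means were 194 ± 58 and 782 ± 17.4 FPKM (SD, n = 2 each), a ratio of 4.03, and the difference was 2.04 ± 0.21 (SE) on the log2(FPKM + 1) scale. In the ordering of all 14022 genes tested by this difference, from the highest down, FN1 stood at position 63. By level, FN1 was the gene of rank 329 and 544 in the DMSO libraries and of rank 116 and 127 in the IWP2 libraries, so that fibronectin mRNA was abundant in both groups. It made up 0.0304% ± 0.00787 of the summed FPKM in DMSO and 0.121% ± 0.00385 in IWP2 (SD, n = 2).

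ITGA5 (ENSG00000161638.10; chromosome 12, 54395261 to 54419460, minus strand), the alpha chain of the classical fibronectin receptor, moved the other way. It had 91.5 and 96.2 FPKM in DMSO and 21.1 and 19.1 FPKM in IWP2. The groups were far apart, and the replicates of each lay close together. Its mean was 4.67 times higher in DMSO (93.9 ± 3.32 against 20.1 ± 1.36, SD, n = 2), and the difference was -2.17 ± 0.09 (SE, log2 scale), the 169th lowest of all genes tested. The antisense genes AC079313.1 and AC079313.2, which overlap ITGA5, reached at most 0.659 FPKM.

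ITGAV (ENSG00000138448.11; chromosome 2, 186590065 to 186680901, plus strand), the alpha chain of the vitronectin receptors, was measured at 30.4 and 26.7 FPKM in DMSO and 42.3 and 37.6 FPKM in IWP2. The lower IWP2 library was above the higher DMSO library, but the gap was small beside that of ITGA5. The ratio of the means was 1.4, with a log2 difference of 0.47 ± 0.11 (SE). ITGAV was thus 0.332 and 0.277 times the level of ITGA5 in the DMSO libraries and 2.01 and 1.96 times in the IWP2 libraries.

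ITGA4 (ENSG00000115232.13; chromosome 2, 181457202 to 181536187, plus strand), best known from leukocytes and blood progenitors, was low in every library. It had 1.04 and 2.22 FPKM in DMSO and 0.417 and 0.397 FPKM in IWP2, which is about 95, 180, 41 and 34 fragments if all came from its longest GENCODE transcript. The DMSO replicates differed from each other by more than the lower of them differed from the IWP2 libraries. The mean in DMSO was 4.01 times that in IWP2. It passed the filter on low values, a mean of 1 FPKM over the 4 libraries, only through the DMSO group.

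ITGA8 (ENSG00000077943.7; chromosome 10, 15513949 to 15720125, minus strand), a receptor chain known from kidney development and smooth muscle, was barely detected. Its values were 0.214 and 0.466 FPKM in DMSO and 0.0729 and 0.0492 FPKM in IWP2, about 31, 61, 12 and 7 fragments. The groups did not overlap, but the DMSO replicates were more than a factor of 2 apart, and the counts are so small that counting error is large. ITGA8 did not pass the filter and was not fitted.

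**Figure D1:**
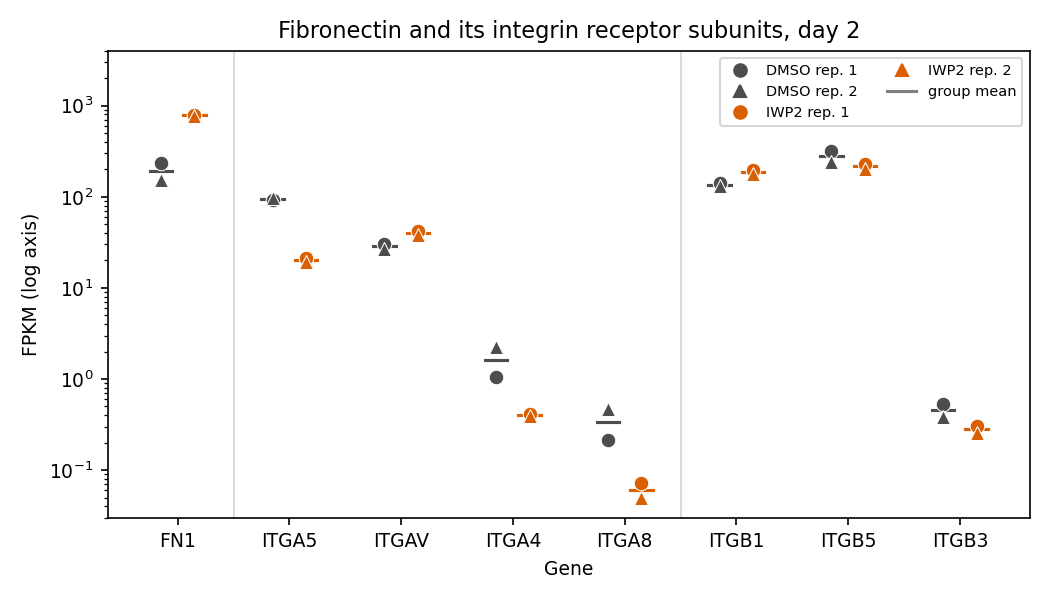
FPKM (log axis) of the 8 genes in each of the 4 libraries, DMSO in grey and IWP2 in orange, with circles for replicate 1, triangles for replicate 2 and a bar at the mean of each group (n = 2). FN1 was higher with IWP2 (769 and 794 against 153 and 235 FPKM) and ITGA5 lower (19.1 and 21.1 against 91.5 and 96.2), whereas ITGA4, ITGA8 and ITGB3 were near or under 1 FPKM in most libraries.

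Of the beta chains, ITGB1 (ENSG00000150093.18; chromosome 10, 32900319 to 33005792, minus strand), the common partner of ITGA4, ITGA5, ITGA8 and ITGAV, had 141 and 131 FPKM in DMSO and 195 and 178 FPKM in IWP2. The IWP2 libraries were higher, with a gap about as wide as that for ITGAV. The ratio of the means was 1.37 and the log2 difference 0.45 ± 0.09 (SE). ITGB1 and ITGA5, the chains of 1 receptor, therefore moved in opposite directions.

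ITGB5 (ENSG00000082781.11; chromosome 3, 124761948 to 124901418, minus strand), a beta chain that pairs with ITGAV, had the highest level of any integrin member in both groups. It was at 317 and 243 FPKM in DMSO and at 228 and 203 FPKM in IWP2. The groups did not overlap, but the lower DMSO library lay closer to the IWP2 libraries than to the other DMSO library. The log2 difference was -0.36 ± 0.15 (SE), and without DMSO replicate 1 it was -0.17.

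ITGB3 (ENSG00000259207.7; chromosome 17, 47253846 to 47311816, plus strand), the beta chain of platelet and endothelial receptors, was measured at 0.536 and 0.382 FPKM in DMSO and 0.307 and 0.257 FPKM in IWP2. These are about 46, 30, 29 and 21 fragments, so that the nearest DMSO and IWP2 libraries differed by less than counting error. ITGB3 did not pass the filter. A coding gene on the same strand, AC068234.1, overlaps it and was at 0 to 0.148 FPKM, and how reads were divided between the genes is not given in the sources used here.

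In all, 6 of the 8 members passed the filter. In the linear model across all genes (limma, adjusted p under 0.05), 2 of them were counted as higher (FN1 and ITGB1), 1 as lower (ITGA5) and 3 as neither (ITGA4, ITGAV and ITGB5), where 15.2% of all genes tested were called, 6.75% higher and 8.44% lower. Neither FN1 nor ITGB1 was counted without the filter on low values or without either IWP2 library, and ITGB1 was not without the mean-variance trend or without either DMSO library, whereas ITGAV was counted as higher in 5 other settings. The FPKM of the groups did not overlap for any of the 8 members, and neither did they for 59.8% of the genes tested. These counts are no test of the members and nothing is read from them, because the members were chosen on this contrast.

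The order of the levels differed between the groups. In DMSO it ran from ITGB5 (mean 280 FPKM) through FN1 (194), ITGB1 (136), ITGA5 (93.9), ITGAV (28.6), ITGA4 (1.63) and ITGB3 (0.459) to ITGA8 (0.34). Only ITGB3 and ITGA8 overlapped among neighbours in that order. In IWP2 it ran from FN1 (782) through ITGB5 (216), ITGB1 (186), ITGAV (39.9), ITGA5 (20.1), ITGA4 (0.407) and ITGB3 (0.282) to ITGA8 (0.0611), and no neighbours overlapped. FN1 thus exchanged places with ITGB5, and ITGAV with ITGA5.

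Ratios within a library do not depend on how libraries were scaled to each other. ITGA5 formed 74.3% and 76.6% of the summed FPKM of the 4 alpha members in the DMSO libraries and 33.0% and 33.5% in the IWP2 libraries. ITGAV formed 24.7% and 21.2% in DMSO and 66.3% and 65.7% in IWP2. The larger share was thus held by ITGA5 in DMSO and by ITGAV in IWP2, and the sum of the 4 was 124 ± 1.7 FPKM in DMSO and 60.5 ± 4.73 FPKM in IWP2 (SD, n = 2). The log2 ratio of ITGA5 to ITGAV was 1.59 and 1.85 in DMSO and -1.01 and -0.97 in IWP2. With 2 libraries against 2, an exact two-sided permutation test cannot go below p = 0.33, and none was run.

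**Figure D2:**
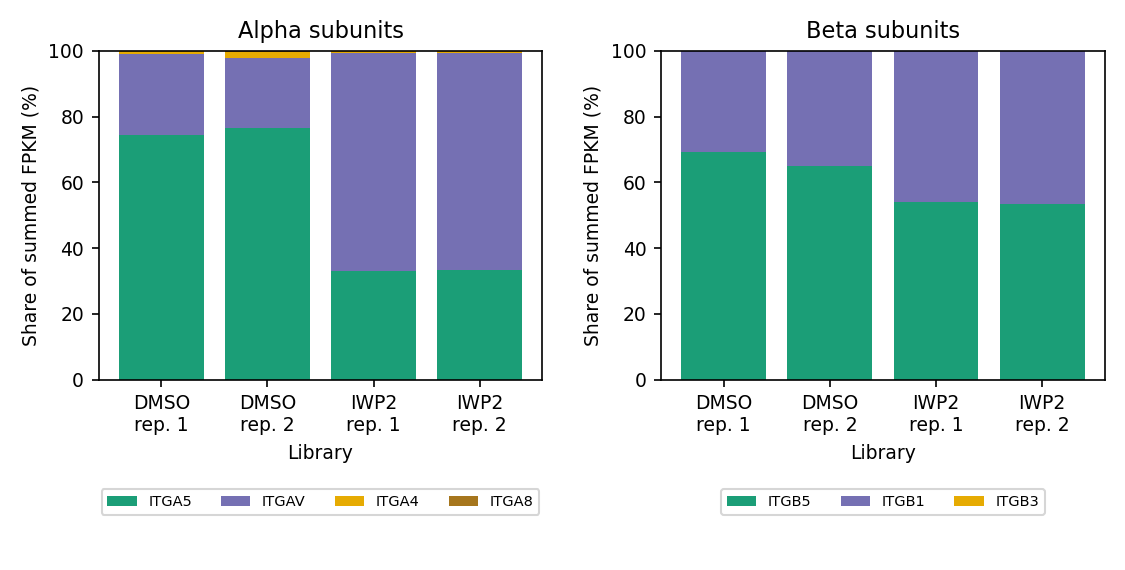
Share of the summed FPKM (%) of the 4 alpha members (left) and the 3 beta members (right) in each library. The ITGA5 share was 74.3% and 76.6% in DMSO and 33.0% and 33.5% in IWP2, and the ITGB5 share was 69.1% and 64.9% in DMSO and 53.9% and 53.3% in IWP2; ITGA8 and ITGB3 are too thin to see.

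The beta chains changed their proportions less. ITGB5 held 69.1% and 64.9% of their summed FPKM in DMSO and 53.9% and 53.3% in IWP2, and ITGB1 held 30.8% and 35.0% and then 46.1% and 46.6%. The sum of the 3 beta members was 417 ± 59.9 FPKM in DMSO and 402 ± 30.4 FPKM in IWP2 (SD, n = 2), a difference smaller than the spread between replicates. The level of the ligand relative to its receptor chains was higher with IWP2. FN1 was 2.57 and 1.59 times the level of ITGA5 in DMSO and 37.7 and 40.2 times in IWP2, and it was 1.66 and 1.17 times the level of ITGB1 in DMSO and 4.06 and 4.33 times in IWP2. The ratio of ITGA5 to ITGA4 overlapped between the groups, with log2 values of 6.46 and 5.44 in DMSO and 5.66 and 5.59 in IWP2.

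The DMSO replicates differed in the members and in some cell-type markers. DMSO replicate 2 had the lower FN1, ITGAV, ITGB1, ITGB3 and ITGB5 and the higher ITGA4, ITGA5 and ITGA8 of the pair. In the IWP2 pair, replicate 2 had the lower value for every member (FN1 769 against 794 FPKM). In DMSO replicate 2, 8 of 10 mesoderm markers were higher than in DMSO replicate 1 (summed FPKM 1178 against 951). All 18 epithelial genes were lower there (1503 against 1877). The endoderm markers had no common direction, since 3 were higher and 4 lower, and their sum was 2307 against 1918 with CER1 and 259 against 306 without it. The part of these markers in the difference between the replicates was not tested.

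The genes whose pattern over the 4 libraries was most like that of FN1 were FAM46B, TMTC1, CLDN4, CRABP1 and LINC00678. Likeness was the distance between deviations of log2(FPKM + 1) from each gene's mean, among 7114 other genes with a mean of at least 10 FPKM. The distances ran from 0.16 for FAM46B to 0.22 for LINC00678. CLDN4, a tight junction claudin, had 9.22 and 4.75 FPKM in DMSO and 31 and 33 FPKM in IWP2. CRABP1, which binds retinoic acid, had 45.1 and 33.8 FPKM in DMSO and 170 and 180 FPKM in IWP2. These genes were picked by likeness to FN1 over all 4 libraries. That their lower DMSO value was that of replicate 2, as with FN1, therefore follows largely from the choice.

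Other integrin subunits were compared to ask whether the receptor repertoire beyond the members changed. Of 19 subunits, 9 passed the filter, and 2 rose, 2 fell and 5 were not called. The median log2 difference of the 9 was -0.17, against -0.02 for all genes tested. ITGA7, a laminin receptor chain, had 11.6 and 8.69 FPKM in DMSO and 23.2 and 22.6 FPKM in IWP2, a log2 difference of 1.11 ± 0.15 (SE, limma adjusted p = 0.01). ITGA3, another laminin receptor chain, rose too (means 3.22 and 6.83 FPKM, adjusted p = 0.037). ITGA9, whose heterodimer with ITGB1 binds tenascin C and the spliced EDA segment of fibronectin, had 10.3 and 13.4 FPKM in DMSO and 2.62 and 2.59 FPKM in IWP2. Its log2 difference was -1.82 ± 0.16 (adjusted p = 0.0032). ITGB8, which pairs with ITGAV, fell from 2.36 to 0.7 FPKM (adjusted p = 0.026). It was at 0.75 and 0.65 FPKM in the IWP2 libraries and passed the filter only through the DMSO group. ITGAE and ITGA6 did not pass the test, with log2 differences of -0.17 ± 0.14 and 0.48 ± 0.22 (SE).

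Inside the cell, integrins are linked to actin by an adhesion complex of talin, kindlin, vinculin and their partners. Of 34 genes of this complex, 33 were tested, and 6 rose, 5 fell and 22 were not called, with a median log2 difference of 0.06. VCL, vinculin, rose from 56.3 and 50.4 FPKM to 126 and 122 FPKM (log2 difference 1.20 ± 0.09, adjusted p = 0.0022). The other genes that rose were ACTN1, BCAR1, KANK2, TNS3 and ZYX, which were named after their values were seen. TNS2, a tensin, fell from 8.19 and 10.4 FPKM to 1.29 and 1.14 FPKM, the largest decrease of the list (-2.21 ± 0.16, adjusted p = 0.0021). SRC, the adhesion-linked tyrosine kinase, and TGFB1I1 fell, with log2 differences of -1.25 ± 0.10 and -1.19 ± 0.13 (adjusted p = 0.0029 and 0.0054). The actin crosslinkers ACTN4 and FLNA were the most abundant genes that did not pass the test, with log2 differences of 0.31 ± 0.13 and 0.14 ± 0.08 (SE).

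Fibronectin assembles with other matrix proteins. The list of its partners also holds cell-surface receptors and enzymes, and most of its genes that passed the test moved against FN1. Of 22 matrix partners, 19 were tested, and 3 rose, 8 fell and 8 were not called, with a median log2 difference of -0.46. With quantile normalization or median scaling, 5 were called higher and 8 lower. TNC, tenascin C, which binds fibronectin and weakens adhesion to it, had 103 and 70.7 FPKM in DMSO and 7.24 and 6.94 FPKM in IWP2, a log2 difference of -3.42 ± 0.19 (adjusted p = 0.00082). COL5A1, a collagen V chain, had 119 and 154 FPKM in DMSO and 14.7 and 13.8 FPKM in IWP2 (adjusted p = 0.00048). The fibrillin FBN2 fell from 114 and 130 FPKM to 44.8 and 33.9 FPKM (limma, adjusted p = 0.0038). CD44, the hyaluronan receptor, fell from 11.5 and 5.15 FPKM to 1.92 and 1.93 FPKM (adjusted p = 0.038). Neither FBN2 nor CD44 was called without the filter on low values, and CD44 was not called without the trend either. The 3 genes that rose with FN1 were THBS1, SDC2 and LTBP1, named after their values were seen. None of these 3 was called without the filter on low values, and LTBP1 was not called with a replicate block either. SDC2, a syndecan that takes part in fibronectin assembly, had 95 and 73 FPKM in DMSO and 176 and 186 FPKM in IWP2, and THBS1, thrombospondin, 3.29 and 2.24 and then 9.54 and 8.44. The collagen I chain COL1A2 and the syndecan SDC4 did not pass the test, at log2 differences of -0.46 ± 0.11 and -0.21 ± 0.08 (SE).

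**Figure D3:**
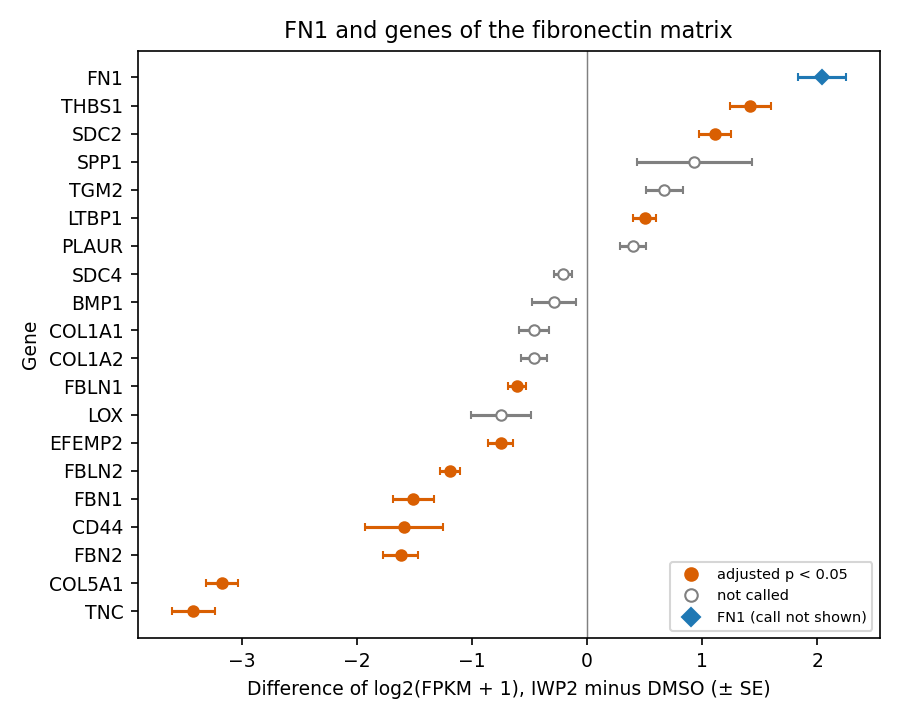
Difference of log2(FPKM + 1), IWP2 minus DMSO, with its standard error (n = 2 libraries a group) for FN1 (blue diamond, call not shown) and the 19 tested genes of the list of fibronectin matrix partners (filled orange, adjusted p under 0.05; open grey, not called). FN1 lay at 2.04, beyond the 3 partners that rose, and TNC and COL5A1 lay lowest, at -3.42 and -3.17.

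FN1 is commonly counted among mesenchymal genes, so a list of 28 others was set beside it. Of the 25 tested, 2 rose, 16 fell and 7 were not called, and the median log2 difference was -1.32. BMP2, a growth factor of the mesoderm, fell from 101 and 122 FPKM to 4.55 and 4.52 FPKM (adjusted p = 0.00019). MSX1 and FOXF1, transcription factors of mesoderm, fell by 3.99 ± 0.15 and 3.61 ± 0.19 on the log2 scale (limma, adjusted p = 0.0003 and 0.00073). SNAI2, a repressor of epithelial genes, fell by 3.20 ± 0.18 (adjusted p = 0.00083). FOXF1 (0.0243 and 0.0844 FPKM in IWP2) and SNAI2 (0.792 and 1.02 FPKM in IWP2) passed the filter only through the DMSO group. With a pseudocount of 0.1 the log2 differences of MSX1, FOXF1 and SNAI2 were -4.742, -6.302 and -4.055. Only TAGLN, a smooth muscle actin-binding protein, and THY1 rose, again named after their values were seen. Neither was called without the filter on low values, and THY1 was not called without the trend either. MSX2 and POSTN, a matrix protein that itself binds integrins, did not pass the test (log2 differences -0.12 ± 0.13 and -0.14 ± 0.45, SE).

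Epithelial genes moved in the direction of FN1. Of 18 tested, 9 rose, 0 fell (limma; 0 also at an unadjusted p under 0.05) and 9 were not called, and the median log2 difference was 1.0. CDH1, the epithelial cadherin, had 32.6 and 29.7 FPKM in DMSO and 120 and 124 FPKM in IWP2 (log2 difference 1.94 ± 0.09, adjusted p = 0.00049). CLDN4, GRHL2, an epithelial transcription factor, and RAB25 rose by 2.11 ± 0.27, 1.96 ± 0.15 and 1.57 ± 0.17 on the log2 scale (adjusted p = 0.0091, 0.0024 and 0.0058). The abundant keratins KRT8 and KRT18 did not pass the test (log2 differences 0.17 ± 0.11 and 0.27 ± 0.12, SE). Markers of fibroblasts, a cell type rich in fibronectin, summed to 213 to 233 FPKM in DMSO and 220 to 221 in IWP2 (130 to 144 and 101 to 107 without THY1, the most abundant), with 1 of 6 tested called higher and 1 lower and DCN listed at 0 in 3 of the 4 libraries.

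**Figure D4:**
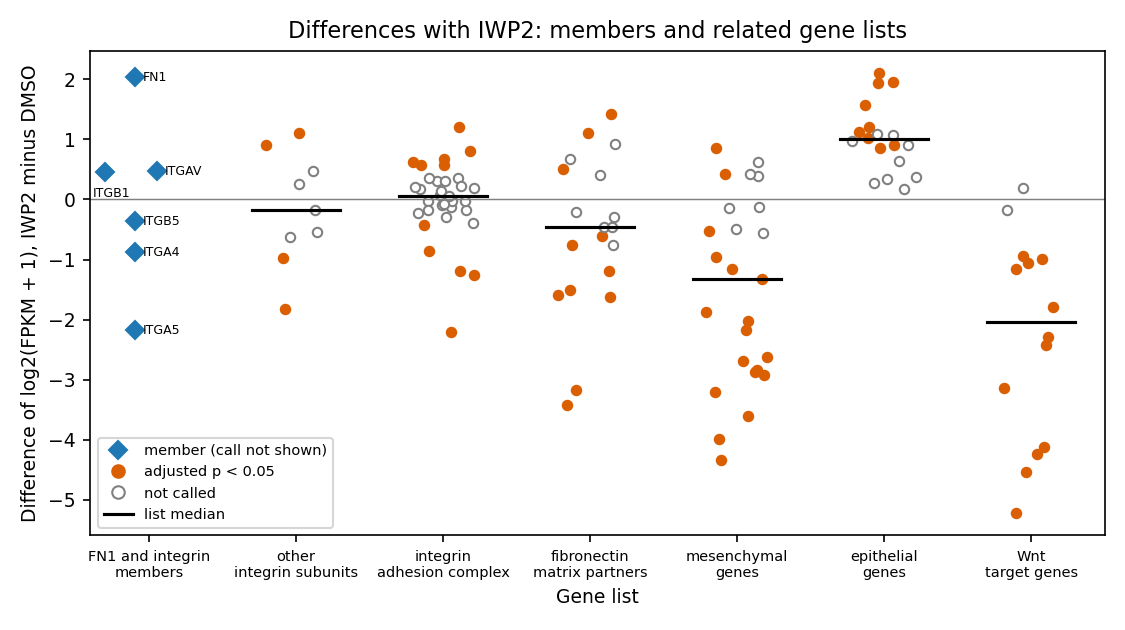
Difference of log2(FPKM + 1), IWP2 minus DMSO, for the 6 members that passed the filter (blue diamonds, calls not shown) and the tested genes of 6 lists (filled, adjusted p under 0.05; open, not called; black bar, list median). FN1 at 2.04 lay among the highest epithelial genes, whereas the medians of the mesenchymal and Wnt target lists were -1.32 and -2.04, and ITGA5 lay at -2.17.

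The counts of calls changed when a library was left out. A fit without 1 IWP2 library takes its spread from the DMSO pair alone and assumes that the lone library varies alike, and the median SD between replicates was 0.109 in DMSO and 0.092 in IWP2 on the log2 scale. The calls over all genes were then 90 higher and 204 lower without IWP2 replicate 1 and 58 and 180 without IWP2 replicate 2, against 946 and 1183 with every library. They were 657 and 718 without DMSO replicate 1 and 440 and 689 without DMSO replicate 2, and 118 and 263 without the filter on low values. Whichever library was left out, FN1 differed by 1.73 to 2.35 and ITGA5 by -2.24 to -2.10 on the log2 scale.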

How the data were processed

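Total RNA libraries were made with an Illumina TruSeq kit from H1 cells, 2 per group. The authors deposited 1 table of FPKM values per gene and library; the submitters' processing notes name BWA, Bowtie, RSEM and hg19, with no role or order. The table states no unit, but 92.3 to 93.7% of low values of genes with 1 transcript of at least 3000 bases, taken as FPKM, were within 0.15 of a whole number of fragments (205 to 212 genes per library). The gene intervals are those of GRCh38: 55629 of the 55723 rows whose versioned IDs are in GENCODE release 29 had its exact interval, with starts counted from 0. Each figure of fragments is an estimate from these steps and covers counting error only.

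Column signs were read as without and with IWP2; the DMSO columns were matched to their group, and their replicate numbers are those of the column headings. Genes with a mean of at least 1 FPKM over the 4 libraries (14022) were tested on log2(FPKM + 1) with limma 3.58.1 (R 4.3.3; mean-variance trend; Benjamini-Hochberg adjustment, two-sided), which understates changes of low genes, and the fit was tested on simulated data. A repeated symbol was represented by its highest row. Members, lists and tests were chosen with earlier results of these data known. Of each list, the 4 called genes with the largest differences and the 2 most abundant uncalled genes were named; other names are marked. TENC1 was matched to TNS2 through RefSeq synonyms. Lists share genes, so their counts and sums are not independent. T is shared by Wnt targets and mesoderm markers, and PDGFRA and HAND1 by mesenchymal genes and cell-type markers. Fibroblast markers share THY1, POSTN and PDGFRB with the mesenchymal list and COL1A1, COL1A2 and COL3A1 with the matrix partners. Promoters are RefSeq's on GRCh38.p14, and ITGB3 had none in the table. The paper gives 40 ng/ml for BMP4 and 50 ng/ml for activin A, the reverse of the labels. Alternatives were other pseudocounts, filters, scalings, no trend, a replicate block and leaving out each library.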

Additional observations from a re-analysis of the deposited data

How the results depend on the processing

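The log2 differences of FN1, ITGA5, ITGAV, ITGB1 and ITGB5 kept their direction in all alternatives run and moved by less than the spread between replicates in those that kept every library. With a pseudocount of 0.1 the differences of the low members grew to -1.68 (ITGA4), -1.39 (ITGA8) and -0.54 (ITGB3). Leaving out each library in turn gave FN1 1.73 to 2.35, ITGA4 -1.19 to -0.54, ITGA5 -2.24 to -2.10, ITGA8 -0.47 to -0.20, ITGAV 0.38 to 0.56, ITGB1 0.38 to 0.52, ITGB3 -0.26 to -0.11 and ITGB5 -0.56 to -0.17. The calls were less stable, and the cause was not tested. Without a filter, 118 genes were called higher and 263 lower; among members 0 were then called higher, among other integrin subunits 0 and 0, in the adhesion complex 1 and 2, among matrix partners 0 and 3, among mesenchymal genes 0 and 10, and 2 epithelial genes higher. Without the trend, 1 member and 1 mesenchymal gene were called higher. With a pseudocount of 0.1, a mean of at least 5 FPKM, quantile normalization, median scaling or a replicate block, 3 members were called higher, since ITGAV gained a call. With a mean of at least 5 FPKM, 1 other integrin subunit was called lower. Quantile normalization called 5 matrix partners higher, and median scaling 5 matrix partners and 14 epithelial genes. Over the fits that left out 1 library, higher and lower calls ranged from 58 to 657 and from 180 to 718 for all genes, 0 to 1 and 1 to 2 for members, 0 to 2 and 0 to 2 for other integrin subunits, 0 to 4 and 0 to 3 for the adhesion complex, 0 to 3 and 3 to 9 for matrix partners, 0 to 1 and 9 to 15 for mesenchymal genes, 1 to 14 higher for epithelial genes and 6 to 12 lower for Wnt targets. Among uncalled genes, the sign turned without DMSO replicate 1 for MSX2 (-0.274 to 0.029 over the fits that left out 1 library), POSTN (-0.844 to 0.568) and RNF43 (-0.448 to 0.109), and without IWP2 replicate 1 for ITGAE (-0.341 to 0.000). Whether replicates with the same number in the 2 groups belong together is not stated. The differences between replicates 1 and 2 correlated across genes at r = 0.152 (2 pairs), which cannot settle it. With a replicate block 862 genes were called higher and 1065 lower, and of the lists LTBP1 and FERMT2 lost their call, and 2 matrix partners and 13 epithelial genes were called higher. None of the 36 genes named by rule changed its call under the block, whereas 9 lost it without a filter, 11 without IWP2 replicate 1 and 12 without IWP2 replicate 2. The planned count test was not run, since whole fragments were recovered only for genes with a single transcript.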
